A study of Mus musculus with 6 samples.

Results

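The replication-dependent histone genes supply the bulk histones that package newly made DNA. They were taken as every gene whose GENCODE M21 symbol starts with Hist1h, Hist2h, Hist3h or Hist4h and which had at least 1 read in any library. This gave 64 genes of the 25654 identifiers with values: 6 for linker histone H1, 17 for H2A, 17 for H2B, 12 for H3 and 12 for H4. Another 4 symbols of the same series, Hist1h2ba, Hist1h4m, Hist2h2ab and Hist3h2bb-ps, were listed at 0 in all 6 libraries, and Hist1h2aj and Hist1h2al were not analysed here. RNA was sequenced from CD8 T cells, the cytotoxic arm of the T cell response, purified from spleens of wild-type (WT) female C57BL/6 mice. One group of 3 libraries came from young mice (6 weeks) and the other 3 from aged mice (around 65 weeks). Both groups were treated alike: plate-bound anti-TCR-β (3 μg/ml) and anti-CD28 (1 μg/ml) with IL-2 (10 ng/ml) for 2 days, then IL-2 (10 ng/ml) alone for 5 days, so the cells were read at day 7. The labels call the libraries biological replicates but do not say whether each came from 1 mouse or from pooled mice. The p-values thus set the group difference against the spread between these libraries, which may not be the spread between mice.

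Replication-dependent histone genes are transcribed in S phase, when DNA is copied. Their mRNAs are unusual in that most end in a conserved stem-loop, cut just downstream with the help of U7 snRNA and bound by the stem-loop binding protein, in place of a poly(A) tail. The libraries were made with QuantSeq, a 3' end method primed on A stretches, so that the values describe transcripts that carry an A tail or an A-rich stretch and not the total histone mRNA. Each transcript gives reads near 1 end, so values in CPM (reads scaled to a common total per library) do not grow with gene length and levels of different genes are set side by side per transcript end. How efficiently each histone transcript was primed was not tested.

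The libraries held 1952552 to 2785915 reads, and the floor that a 0 leaves in 1 library, 3 reads, was worth 1.08 to 1.54 CPM (counting error only, since no molecular identifiers are described). T cell markers were abundant in all libraries, with a summed level over 7 genes of 2580 to 2698 CPM in young and 2040 to 2201 CPM in aged cells, and Cd4 was at 0.384 CPM or less. Markers of other spleen cells were low and tended to be lower in aged libraries. The 5 B cell markers summed to 2.51 to 9.99 CPM in young and 0 to 1.53 CPM in aged cells, with 4 of them (all but Cd79b) at 0 in every library. The 4 erythroid markers summed to 7.39 to 15.8 against 0.471 to 2.56 CPM (2 of 4 at 0 throughout), the 5 myeloid markers to 14.6 to 21.3 against 6.66 to 19.3 CPM (2 of 5 at 0 throughout), and the 2 NK cell markers to 20.4 to 26.5 against 11.9 to 17.9 CPM. Their part in the histone values was not tested.

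Stem-loops were found in the annotated transcripts of 44 of the 64 genes. The search covered the longest protein-coding transcript of each gene, and other transcripts were not searched. It asked for 16 bases with a fully paired 6-base stem, starting with GG and ending with CC. After GG the first arm was limited to C and T, and the loop to T followed by 3 bases other than G. The stem-loops found began 22 to 59 bases after the stop codon (median 32). Of the 20 genes without one, 13 have GENCODE transcripts that end 0 to 2 bases after the stop codon (Hist1h1b among them) and leave nothing to search. The form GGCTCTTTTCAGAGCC was found in 25 genes, of classes H1, H2A, H2B and H3, and in none of the H4 genes. The form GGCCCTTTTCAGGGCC was found in 6 genes, all of them H4. Below are the 30 bases around the stem-loop (GRCm38, GENCODE M21 transcripts) for 8 genes whose levels are described further on, with the stem-loop in capitals. Hist1h2ap lies at chr13:21833027-21833056 (minus strand), Hist1h2ae at chr13:23570666-23570695 (minus strand), Hist1h3c at chr13:23745045-23745074 (minus strand) and Hist1h1e at chr13:23621780-23621809 (minus strand). Hist1h1c lies at chr13:23739500-23739529 (plus strand), Hist2h2ac at chr3:96220416-96220445 (minus strand), Hist1h4d at chr13:23581938-23581967 (plus strand) and Hist1h4b at chr13:23757354-23757383 (plus strand).
Hist1h2ap: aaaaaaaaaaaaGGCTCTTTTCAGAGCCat
Hist1h2ae: aaaaaaaacaaaGGCTCTTTTCAGAGCCat
Hist1h3c: tatttaaaaaaaGGCTCTTTTAAGAGCCac
Hist1h1e: caacaacccaaaGGCTCTTTTCAGAGCCac
Hist1h1c: aacaatccaaaaGGCTCTTTTCAGAGCCac
Hist2h2ac: cgaatccaaaaaGGCTCTTTTTAGAGCCac
Hist1h4d: ccaaaaaccaaaGGCCCTTTTCAGGGCCac
Hist1h4b: actgttacaaaaGGTCCTTTTCAGGACCac
In each of these the stem-loop follows directly on at least 3 A, and in Hist1h2ap on 12 A in a row.

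Summed over all 64 genes, histone transcripts were 1.69-fold higher in aged than in young cells. The sums were 2092, 1696 and 2544 CPM in the young libraries and 3589, 3532 and 3589 CPM in the aged libraries. The aged libraries lay close together and above every young library, and the young libraries were spread more widely, with Young replicate 2 lowest and Young replicate 3 highest. The group means were 2111 ± 424 in the young and 3569.8 ± 32.9 CPM in the aged group (SD, n = 3 libraries per group). Histone transcripts were thus 0.170% to 0.359% of the reads of a library. In bulk RNA, a higher level per cell and a larger share of cells that express a gene cannot be told apart.

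Each gene was then tested between the age groups with limma on log2(CPM + 1), with p-values adjusted over all 10511 genes that averaged 1 CPM or more. Of the 64 histone genes 48 passed that filter, and 15 of them were higher in aged cells and 0 were lower (0 lower at an unadjusted p under 0.05 too). By comparison, 16.2% of all genes tested were higher and 12.5% were lower (28.7% either way). With edgeR on the recovered reads the count was 15 higher and 0 lower (13.7% of all genes higher), and with DESeq2 it was 8 and 0 (8.98% of all genes higher). Without Young replicate 2 the count was 8, and without Aged replicate 2 it was 9. The log2 fold change was above 0 in 42 of the 48 genes and below 0 in 6, with a median of 0.63 (range -0.35 to 1.47) against a median of 0.03 over all genes tested. The histone median was the same (0.63) with Hist2h3b, at 0 in all young libraries, set against the floor of 3 reads per group. A change in 1 of 48 values can hardly move a median, so this says nothing about the other genes. All aged libraries lay above all young libraries in 19 of the 48 genes and below them in 0, where 22.5% of all genes tested lay above and 18.3% below. The histone genes with calls were mostly the abundant ones. Among the 18 genes that averaged 10 CPM or more 12 were higher (21.5% of all genes at that level), and among the 30 genes at 1 to 10 CPM 3 were (4.17% of all genes at that level). The median standard error of the log2 fold change was 0.185 in the first set and 0.416 in the second, so a difference of the size seen in the abundant genes was often not detectable in the others.

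**Figure D1:**
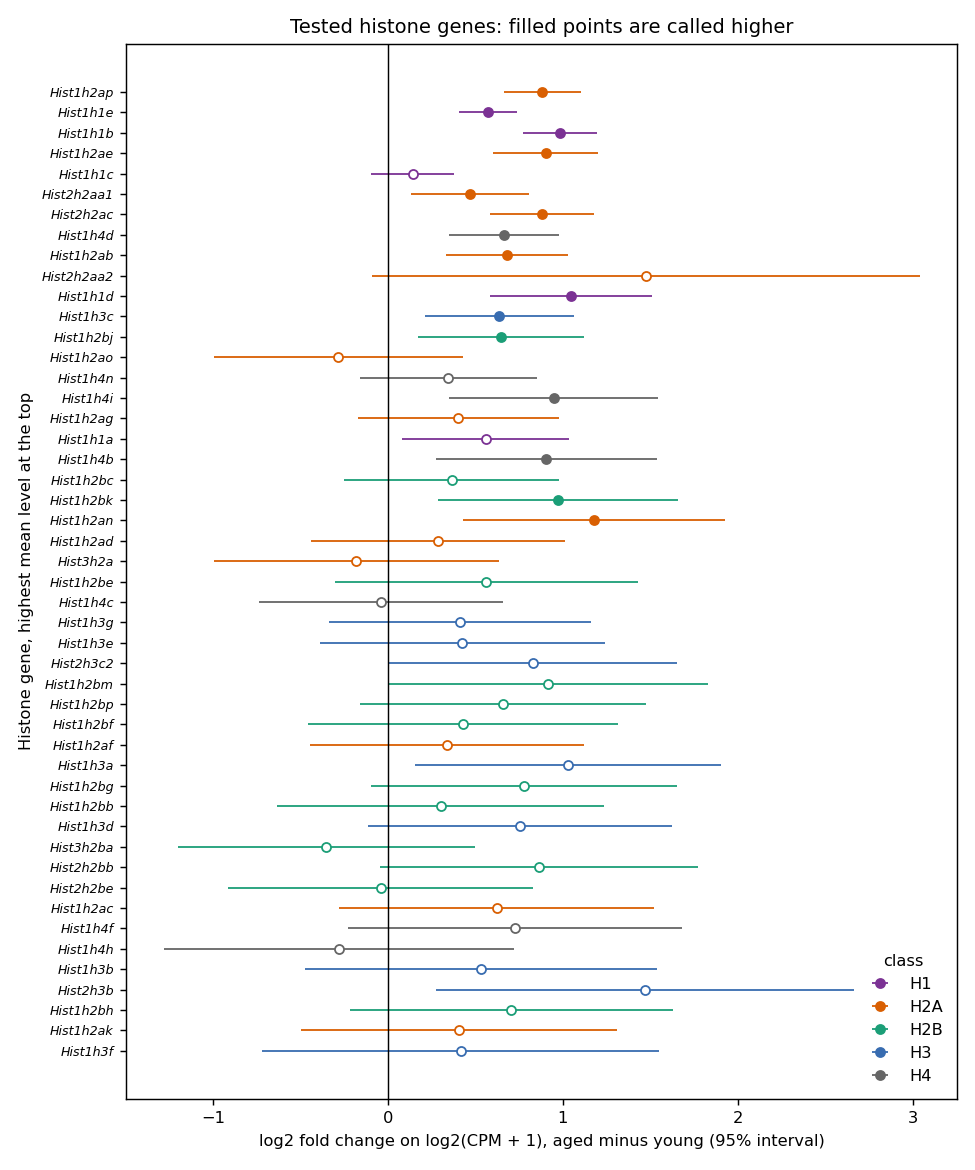
Log2 fold change on the log2(CPM + 1) scale, aged minus young, with its 95% interval from limma, for the 48 tested histone genes in order of mean level. Filled points mark the 15 genes called higher, and the open points include Hist1h1c at 0.14. Intervals widen towards the bottom, where levels are low.

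Linker histones bind the DNA between nucleosomes, and 3 of the 5 tested H1 genes were higher in aged cells (16.2% of all genes tested were). The H1 sum was 574 ± 78.5 in the young and 866 ± 10.5 CPM in the aged group, 1.51-fold higher, and the groups did not overlap. Hist1h1e (ENSMUSG00000051627, chr13:23620629-23622558), which encodes H1.4, was the most abundant, at 412, 356 and 474 CPM in the young libraries and 607, 599 and 629.7 CPM in the aged ones. Its group means were 414 ± 58.9 in the young and 612 ± 15.9 CPM in the aged group, a log2 fold change of 0.57 (SE 0.0794, limma adjusted p = 2.13e-05). The values did not overlap between groups. Its 3' end lies inside annotated exons of Hist1h2be on the same strand, and the 2 genes together gave 417 ± 58.7 in the young and 616 ± 17.6 CPM in the aged group, 1.48-fold higher.

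Hist1h1b (ENSMUSG00000058773, chr13:21779883-21780625), which encodes H1.5, was measured at 75.2, 60.3 and 75.3 CPM in young and 142, 136 and 139 CPM in aged libraries. Every aged library was well above every young library, by 1.98-fold on the means (70.3 ± 8.64 in the young and 139 ± 2.70 CPM in the aged group; log2 fold change 0.98, SE 0.101, limma adjusted p = 6.84e-07). Hist1h1d, the H1.3 gene, was at 11.3, 10.4 and 12.3 CPM in young and 30.7, 28.0 and 16.9 CPM in aged libraries, 2.22-fold higher (log2 fold change 1.05, SE 0.221, limma adjusted p = 0.0013). The aged libraries again lay above all young ones, with Aged replicate 3 the lowest of them. Hist1h1a, the H1.1 gene, was at 8.26, 8.26 and 10.8 CPM in young and 14.9, 13.8 and 12.7 CPM in aged libraries, groups that did not overlap, with a log2 fold change of 0.56 and a limma adjusted p of 0.0752, above the threshold.

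Hist1h1c (ENSMUSG00000036181, chr13:23738808-23740367), which encodes H1.2 and is known to be expressed outside S phase as well, was the abundant H1 gene without a call. It was at 73.5, 57.8 and 76.1 CPM in young and 76.3, 76.7 and 74.4 CPM in aged libraries, values that overlapped, with Young replicate 2 alone below the rest. The means were 69.1 ± 9.89 in the young and 75.8 ± 1.24 CPM in the aged group, and the log2 fold change was 0.14 with a 95% interval of -0.10 to 0.38 (limma adjusted p = 0.395). This interval does not reach the fold changes of Hist1h1b and Hist1h1d. Within each library, Hist1h1b was 0.990 to 1.04 times Hist1h1c in the young and 1.78 to 1.87 times in the aged cells. Hist1h1e was 5.61 to 6.23 times Hist1h1c in the young and 7.82 to 8.47 times in the aged cells. The ratio to Hist1h1c was 0.154 to 0.180 against 0.228 to 0.403 for Hist1h1d, and 0.112 to 0.143 against 0.171 to 0.195 for Hist1h1a. The 4 ratios, which do not depend on library scaling, were thus higher in every aged library than in every young one, although each shares Hist1h1c as its denominator. The testis form Hist1h1t was near the limit of detection, with a mean of 0.349 CPM.

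The promoters of the H1 genes resemble each other, which is why 3 are shown: Hist1h1b and Hist1h1e, higher in aged cells, and Hist1h1c, which was not called. RefSeq promoters (GRCm38.p6, 250 bases before to 50 after the start) were matched for 59 of the 64 histone genes and for 27025 genes in all. The 130 bases before the start are given for Hist1h1b (chr13:21780626-21780755, minus strand), Hist1h1e (chr13:23622559-23622688, minus strand) and Hist1h1c (chr13:23738677-23738806, plus strand), with matches to the searched motifs in capitals.
Hist1h1b: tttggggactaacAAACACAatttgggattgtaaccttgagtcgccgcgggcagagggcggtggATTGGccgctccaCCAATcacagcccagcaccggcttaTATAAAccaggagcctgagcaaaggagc
Hist1h1e: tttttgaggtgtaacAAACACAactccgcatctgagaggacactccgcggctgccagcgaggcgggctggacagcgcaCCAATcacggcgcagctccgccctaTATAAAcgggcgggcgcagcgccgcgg
Hist1h1c: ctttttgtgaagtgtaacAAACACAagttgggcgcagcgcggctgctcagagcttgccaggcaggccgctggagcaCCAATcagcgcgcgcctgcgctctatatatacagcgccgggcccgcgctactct
All motifs were searched on both strands. A TATA box, which positions the start of transcription, was searched as TATAAA. The box bound by NF-Y was searched as CCAAT, and the octamer bound by the factor Oct1 as ATTTGCAT. The H1 box, an element shared by linker histone genes, was searched as AAACACA. The E2F site was searched in the forms TTTCGCGC and TTTGGCGC. AAACACA lay 117 bases before the start in Hist1h1b, 115 in Hist1h1e and 112 in Hist1h1c, and CCAAT lay 53, 52 and 54 bases before it. TATAAA lay 28 and 27 bases before the start in Hist1h1b and Hist1h1e and was not found in the Hist1h1c window. That window holds tatatata, which a search for the exact string misses, so it cannot be said to lack a TATA box. A match is a string of letters and not a measured binding site.

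Over the 59 matched promoters, TATAAA was found in 54.2% (14.2% of all promoters) and CCAAT in 86.4% (37.9% of all). CCAAT was in every matched H1, H2A, H2B and H3 promoter and in 3 of the 11 of class H4. AAACACA was in 5 of the 6 H1 promoters and in 8 histone promoters in all (13.6%, against 7.14% of all promoters). The octamer ATTTGCAT was in 7 of 17 H2A and 5 of 15 H2B promoters and in none of the H1, H3 and H4 promoters (20.3% of the histone promoters, 1.75% of all). TTTCGCGC was in 5 H2A and 4 H2B promoters (15.3%, against 0.318% of all), and TTTGGCGC in 0 (0.537% of all). H2A and H2B genes often lie head to head and share 1 promoter region, so these counts are not of independent promoters.

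H2A genes, which encode a core histone that pairs with H2B, gave most of the histone reads. Of 14 tested, 6 were higher in aged cells (42.9%, where 16.2% of all genes tested were). The sum over the 17 H2A genes was 1410.2 ± 333 in the young and 2498 ± 23.4 CPM in the aged group (1.77-fold). Hist1h2ap (ENSMUSG00000094777, chr13:21833026-21833507) alone was at 1171, 923 and 1507 CPM in young and 2178, 2138 and 2195 CPM in aged libraries. The aged values lay within a narrow band above all young values, which ranged more widely. The means were 1200.5 ± 293 in the young and 2170.2 ± 29.5 CPM in the aged group, a 1.81-fold difference (log2 fold change 0.88, SE 0.105, limma adjusted p = 3.76e-06). Hist1h2ao, a copy on the other strand (chr13:21810465-21810944), matched it at all 452 aligned transcript bases, so reads of the 2 genes cannot be told apart by sequence there, and how the counting split them is not given in the sources used here. Hist1h2ao was at 22.2, 6.46 and 15.8 CPM in young and 6.66, 13.8 and 13.2 CPM in aged libraries, overlapping groups with a log2 fold change of -0.28 (limma adjusted p = 0.587), the lowest of the class. The sum of both was 1215 ± 297 in the young and 2181 ± 28.5 CPM in the aged group (1.80-fold, groups apart), and it was 54.8% to 61.5% of all histone reads. The remaining 63 histone genes without Hist1h2ap summed to 910.2 ± 132 in the young and 1399.6 ± 9.44 CPM in the aged group (1.54-fold, groups apart).

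Hist1h2ae was the next most abundant H2A gene, at 43.0, 44.2 and 68.8 CPM in young and 103, 90.9 and 93.7 CPM in aged libraries. The groups were apart, with Young replicate 3 the highest of the young (log2 fold change 0.90, SE 0.143, limma adjusted p = 8.75e-05). Hist1h2ap was 20.9 to 27.2 times Hist1h2ae in young and 21.2 to 23.5 times in aged libraries, ranges that overlap. Hist2h2ac, on chromosome 3 (chr3:96220361-96220880), was at 36.1, 25.5 and 34.2 CPM in young and 54.8, 60.6 and 61.7 CPM in aged libraries. Its values did not overlap, and the log2 fold change was 0.88 (SE 0.142, limma adjusted p = 0.000102). Hist1h2ab was at 22.6, 18.7 and 28.8 CPM in young and 37.4, 34.5 and 40.9 CPM in aged libraries, also apart (log2 fold change 0.68, SE 0.167, limma adjusted p = 0.00426). Of the called genes, Hist1h2ap, Hist1h2ae, Hist2h2ac, Hist1h2ab, Hist2h2aa1, Hist1h2an and Hist1h4b each overlap an annotated gene on the other strand. Hist2h2aa1 also overlaps a gene on its own strand. Whether the counting used strand is not given in the sources used here.

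Hist2h2aa1 and Hist2h2aa2 are a further pair of near-identical copies. Hist2h2aa1 was at 58.7, 35.2 and 42.7 CPM in young and 52.8, 74.4 and 60.7 CPM in aged libraries, groups that overlapped, with a log2 fold change of 0.47 (SE 0.161, limma adjusted p = 0.0353). Hist2h2aa2 was at 0, 16.2 and 30.4 CPM in young and 33.8, 16.1 and 18.4 CPM in aged libraries (limma adjusted p = 0.156). The library in which Hist2h2aa2 was listed at 0, Young replicate 1, had the highest young value of Hist2h2aa1. Their sum was steadier, at 58.7, 51.3 and 73.0 CPM in young and 86.6, 90.5 and 79.1 CPM in aged libraries, 1.40-fold higher with the groups apart. The call on Hist2h2aa1 alone was lost without Young replicate 2, Young replicate 3, Aged replicate 2 or Aged replicate 3 (limma adjusted p = 0.204, 0.0794, 0.156 and 0.0518), and also under TMM and RLE scaling (0.0542 and 0.0547) and by DESeq2 (adjusted p = 0.133).

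Hist1h2an was at 1.74, 2.51 and 4.995 CPM in young and 8.19, 10.7 and 5.18 CPM in aged libraries, low values that did not overlap (log2 fold change 1.18, SE 0.357, limma adjusted p = 0.0177). Its annotated transcript ends at the stop codon and shares stretches of 50 bases with 11 other H2A genes of this series, so its count is uncertain. Its call was lost without Young replicate 1 or 2 or Aged replicate 1 or 2 (limma adjusted p = 0.0902, 0.0593, 0.0524 and 0.0933), and by DESeq2 (adjusted p = 0.0847). Among the H2A genes that passed the filter without a call were Hist1h2ag (means 10.4 ± 4.34 in the young and 13.5 ± 2.36 CPM in the aged group), Hist1h2ad (4.62 ± 1.01 in the young and 6.26 ± 3.25 CPM in the aged group), Hist1h2af (2.32 ± 0.683 in the young and 3.24 ± 1.11 CPM in the aged group), Hist1h2ak (0.785 ± 0.0772 in the young and 1.37 ± 0.197 CPM in the aged group) and Hist1h2ac (0.905 ± 0.157 in the young and 2.02 ± 0.878 CPM in the aged group). Hist3h2a, from the small group on chromosome 11, had a log2 fold change of -0.18 (4.08 ± 1.08 in the young and 3.80 ± 2.10 CPM in the aged group, limma adjusted p = 0.78). The germ cell form Hist1h2aa had a mean of 0.142 CPM, from reads in 2 aged libraries.

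**Figure D2:**
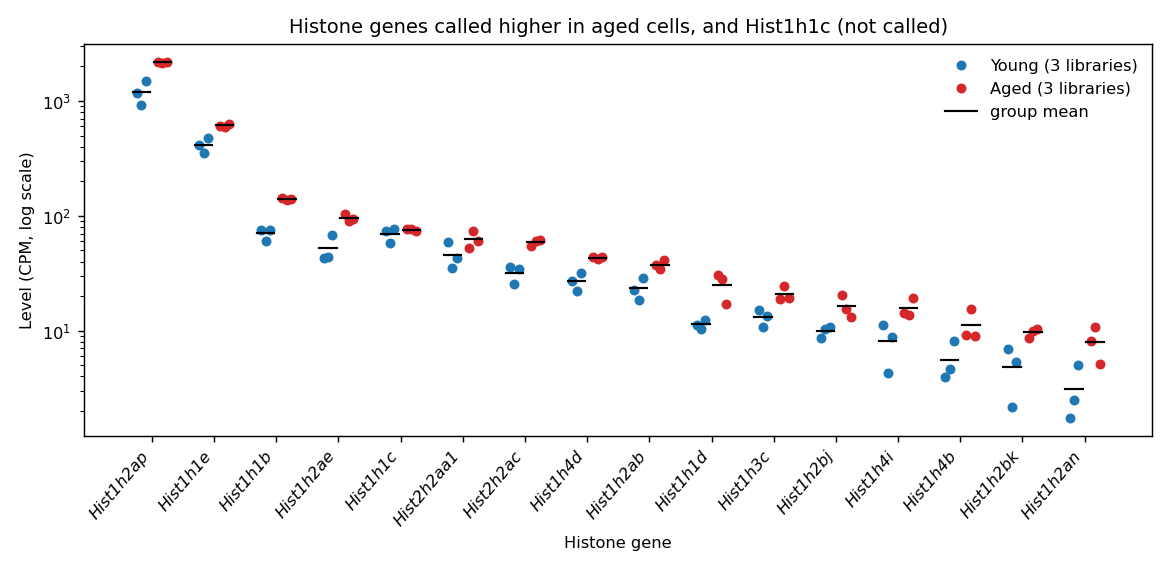
Level in CPM (log scale) of the 15 histone genes called higher in aged cells and of Hist1h1c, which was not called, in each of the 3 young and 3 aged libraries, with group means as bars. The groups are apart in 14 of the 15 called genes and overlap in Hist2h2aa1 and in Hist1h1c.

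H2B genes gave far fewer reads than H2A genes, and 2 of 13 tested were higher in aged cells (15.4%, near the 16.2% of all genes tested). Their sum over 17 genes was 40.0, 41.3 and 43.0 CPM in young and 69.1, 65.2 and 60.7 CPM in aged libraries, with means of 41.4 ± 1.53 in the young and 65.0 ± 4.22 CPM in the aged group (1.57-fold, groups apart). Hist1h2bj was at 8.69, 10.4 and 10.8 CPM in young and 20.5, 15.3 and 13.2 CPM in aged libraries, groups apart (log2 fold change 0.65, SE 0.228, limma adjusted p = 0.0396). Hist1h2bk was at 6.96, 2.15 and 5.38 CPM in young and 8.71, 9.97 and 10.4 CPM in aged libraries, also apart (log2 fold change 0.97, SE 0.327, limma adjusted p = 0.0316). Both calls were near the threshold. That on Hist1h2bj was lost without any 1 of 5 libraries, Aged replicate 3 being the exception (limma adjusted p = 0.13, 0.071 and 0.0519 without Young replicates 1, 2 and 3, and 0.181 and 0.0657 without Aged replicates 1 and 2). It was also lost under TMM, RLE and upper-quartile scaling (0.0561, 0.0562 and 0.0526), with no filter on low values (0.0675), and by edgeR, DESeq2 and limma-voom (adjusted p = 0.0512, 0.197 and 0.0626). That on Hist1h2bk was lost without Young replicate 2 (limma adjusted p = 0.18) and without Aged replicates 1, 2 or 3 (0.0504, 0.0701 and 0.0758). It was also lost with no filter on low values (0.0569), after thinning to the smallest library (0.0759) and by DESeq2 (adjusted p = 0.158).

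Hist1h2bc, an H2B gene known to give polyadenylated mRNA, was at 5.22, 5.38 and 8.84 CPM in young and 6.15, 10.7 and 8.94 CPM in aged libraries, overlapping groups with a log2 fold change of 0.36 (limma adjusted p = 0.393). Hist3h2ba had the lowest log2 fold change of all tested histone genes, -0.35, from 3.04, 3.23 and 1.54 CPM in young and 1.54, 1.15 and 2.82 CPM in aged libraries (limma adjusted p = 0.567), and its groups overlapped. Hist1h2bg and Hist1h2bh had aged values above all young values without a call (means 1.69 ± 1.14 in the young and 3.29 ± 0.406 CPM in the aged group and 0.657 ± 0.248 in the young and 1.74 ± 0.650 CPM in the aged group). Hist1h2be, Hist1h2bm, Hist1h2bp, Hist1h2bf, Hist1h2bb and Hist2h2bb had log2 fold changes from 0.30 (Hist1h2bb) to 0.92 (Hist1h2bm), and Hist2h2be had one of -0.04.

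H2A and H2B genes stand in head-to-head pairs, and 11 such pairs had both genes measured, with 175 to 301 bases between the gene starts. The H2A gene had the higher mean level in 8 of the 11. The contrast was wide in Hist1h2ae against Hist1h2bg (73.9 against 2.49 CPM) and in Hist2h2ac against Hist2h2be (45.5 against 1.57 CPM), and in both pairs the H2A gene was higher in all 6 libraries. The order was the other way in Hist1h2ag against Hist1h2bj (11.9 against 13.1 CPM), Hist1h2ac against Hist1h2bc (1.46 against 7.54 CPM) and Hist1h2ah against Hist1h2bk (0.151 against 7.25 CPM). In 6 of the 11 pairs 1 gene was called higher and its partner was not called or not tested, and there was no pair in which both were called. These partners averaged 0.0725 to 2.88 CPM, except Hist1h2ag at 11.9 CPM. Of all genes at 1 to 10 CPM 4.17% were called higher, and 21.5% at 10 CPM or more. Hist1h2bg and Hist1h2bp, without a call, had log2 fold changes of 0.78 and 0.66, against 0.40 in Hist1h2ag and -0.04 in Hist2h2be. A call on 1 gene alone thus does not show a difference within a pair. The pair Hist2h2ac and Hist2h2be is shown by its shared promoter, the 250 bases before the Hist2h2ac start (chr3:96220881-96221130, minus strand, RefSeq, GRCm38.p6), with motif matches in capitals.
Hist2h2ac: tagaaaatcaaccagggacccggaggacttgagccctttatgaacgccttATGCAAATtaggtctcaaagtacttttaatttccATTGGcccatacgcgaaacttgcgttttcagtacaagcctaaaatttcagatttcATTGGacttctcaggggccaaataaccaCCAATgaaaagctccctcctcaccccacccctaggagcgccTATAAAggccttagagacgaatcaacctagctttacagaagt
It holds TATAAA 42 bases before the Hist2h2ac start and CCAAT at 83 bases. On the other strand it holds CCAAT at 111 and 166 bases and the octamer at 200 bases. Hist2h2ac had a log2 fold change of 0.88 (95% interval 0.58 to 1.18) and Hist2h2be one of -0.04 (-0.91 to 0.83), intervals that overlap, and the difference between the genes was not tested.

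H3 genes, which encode the core histone that pairs with H4, were at low levels. Of 9 tested 1 was higher (11.1%, where 16.2% of all genes tested were), and all 9 had log2 fold changes above 0 (0.41 to 1.47). Summed over 12 genes, H3 was at 27.8, 21.9 and 27.7 CPM in young and 49.7, 49.8 and 44.2 CPM in aged libraries, 1.86-fold higher with the groups apart. Hist1h3c was the most abundant, at 15.2, 10.8 and 13.4 CPM in young and 18.9, 24.5 and 19.3 CPM in aged libraries, groups apart (log2 fold change 0.64, SE 0.203, limma adjusted p = 0.0242). Its call was lost without Young replicate 2 or Aged replicate 2 (limma adjusted p = 0.106 and 0.113), and by DESeq2 (adjusted p = 0.139). Hist1h3g (1.74, 3.95 and 3.07 CPM in young and 3.07, 4.6002 and 4.71 CPM in aged libraries) and Hist1h3e (3.48, 2.15 and 1.92 CPM, then 5.63, 4.22 and 1.88 CPM) overlapped between groups, and Hist1h3g had the lowest log2 fold change of the class, 0.41 (limma adjusted p = 0.432). Hist1h3a had a log2 fold change of 1.03 and groups apart (1.51 ± 0.967 in the young and 3.98 ± 1.42 CPM in the aged group, limma adjusted p = 0.0737).

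The H3 genes encode 2 proteins, H3.1 and H3.2. The 4 H3.1 genes (Hist1h3a, Hist1h3g, Hist1h3h and Hist1h3i) summed to 4.92 ± 2.44 in the young and 10.1 ± 1.43 CPM in the aged group, and the 8 H3.2 genes to 20.9 ± 5.36 in the young and 37.8 ± 1.77 CPM in the aged group, each with the groups apart. Among the H3.2 genes of chromosome 3, the annotated end of Hist2h3b shares sequence with Hist2h3c1 and Hist2h3c2. Hist2h3b, Hist2h3c1 and Hist2h3c2 summed to 2.29 ± 1.201 in the young and 6.63 ± 1.02 CPM in the aged group, also apart. Hist2h3b alone was at 0 in all young libraries and in Aged replicate 1, and at 3.45 and 3.76 CPM in the other aged libraries. How reads were split among the copies was not tested. Hist1h3b, Hist1h3d, Hist1h3f and Hist2h3c2 had log2 fold changes of 0.53, 0.75, 0.42 and 0.83, none of them called.

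H4 genes, the most conserved of the core histones in protein sequence, had 3 of 7 tested members higher (42.9%, where 16.2% of all genes tested were). Their sum over 12 genes was 59.1 ± 9.45 in the young and 92.9 ± 1.96 CPM in the aged group (1.57-fold, groups apart). Hist1h4d was the most abundant, at 27.0, 22.3 and 31.9 CPM in young and 43.5, 41.8 and 43.8 CPM in aged libraries, with the aged values tightly grouped above the young (log2 fold change 0.67, SE 0.150, limma adjusted p = 0.00229). Hist1h4i was at 11.3, 4.31 and 8.84 CPM in young and 14.3, 13.8 and 19.3 CPM in aged libraries, groups apart (log2 fold change 0.95, SE 0.285, limma adjusted p = 0.0167). Its call was lost without Young replicate 2 or Aged replicate 3 (limma adjusted p = 0.106 and 0.0699), and by DESeq2 (adjusted p = 0.0794). Hist1h4b was at 3.91, 4.67 and 8.07 CPM in young and 9.22, 15.3 and 8.94 CPM in aged libraries, with Aged replicate 2 standing above the other aged libraries (log2 fold change 0.91, SE 0.302, limma adjusted p = 0.0302). Its call was lost without Young replicates 1 or 2 or Aged replicate 2 (limma adjusted p = 0.129, 0.0943 and 0.161), with no filter on low values (0.0558), after thinning to the smallest library (0.0681) and by DESeq2 (adjusted p = 0.131).

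Hist1h4n was among the more abundant H4 genes without a call, at 12.2, 10.1 and 9.22 CPM in young and 18.4, 12.3 and 10.8 CPM in aged libraries, overlapping groups (log2 fold change 0.35, limma adjusted p = 0.319). Hist1h4h had the lowest log2 fold change of the class, -0.28, from 0.869, 0.718 and 3.46 CPM in young and 1.54, 1.15 and 0.471 CPM in aged libraries, also overlapping (limma adjusted p = 0.72). Hist1h4c (3.61 ± 0.495 in the young and 3.49 ± 0.541 CPM in the aged group; -0.04 on the log2 scale) and Hist1h4f (0.871 ± 0.800 in the young and 2.01 ± 0.838 CPM in the aged group; 0.72) were not called either. The 16 histone genes under the filter were led by Hist1h2bq (mean 0.780 CPM), Hist1h3i (0.768 CPM) and Hist1h4j (0.717 CPM), all below the floor of a single library.

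**Figure D3:**
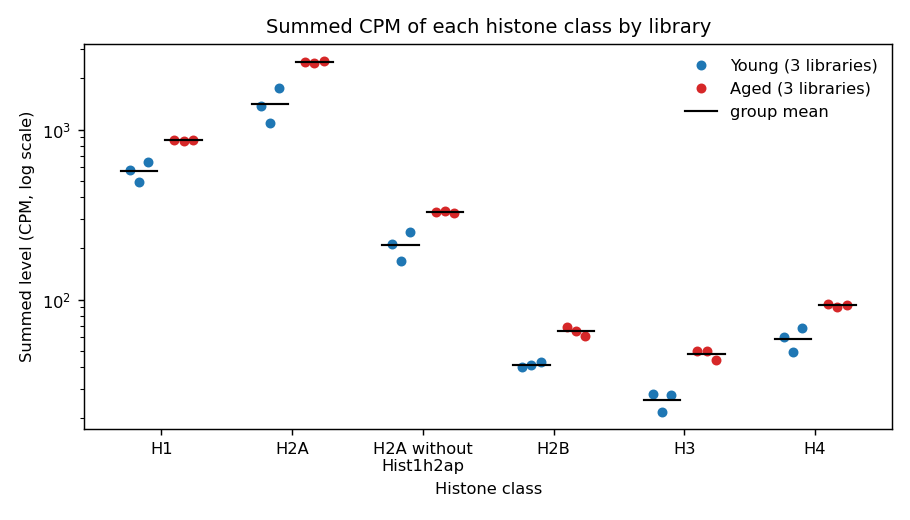
Summed CPM of each histone class (log scale) in the 3 young and 3 aged libraries, with group means as bars. In each class the 3 aged libraries lie above the 3 young ones, also for H2A without Hist1h2ap (means 209.7 and 328 CPM).

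The genes lie in a few clusters, and the difference was seen in the large ones. The 52 Hist1 genes on chromosome 13 summed to 2005 ± 408 in the young and 3409 ± 39.4 CPM in the aged group (1.70-fold), and the 9 Hist2 genes on chromosome 3 (chr3:96219865-96270132) to 98.0 ± 17.02 in the young and 155 ± 5.07 CPM in the aged group (1.58-fold), both with the groups apart. Hist1 genes fall into stretches more than 100 kb apart. The first of these, 17 measured genes at chr13:21715763-21837530, held Hist1h2ap and Hist1h1b and was 1.80-fold higher. The next, 5 genes at chr13:22035164-22043676, was 1.65-fold higher, and the longest, 29 genes at chr13:23531050-23764406 with the other H1 genes, was 1.497-fold higher. All 3 sums were apart between the groups. The 2 Hist3 genes on chromosome 11 (chr11:58948920-58956830) summed to 6.68 ± 1.87 in the young and 5.63 ± 1.22 CPM in the aged group, overlapping groups with the lower mean in aged cells, and both their log2 fold changes were below 0. Hist4h4 on chromosome 6, the sole Hist4 gene measured, was at 0.869, 0 and 0.768 CPM in young and 0, 1.15 and 0 CPM in aged libraries, under the floor.

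The genes Hist1h1c, Hist1h2bc, Hist2h2be and Hist1h2ac are known to give polyadenylated transcripts in cells outside S phase. Of these 4, 0 were called by limma, edgeR or DESeq2 and 0 had an unadjusted p under 0.05 in limma, with log2 fold changes of 0.14, 0.36, -0.04 and 0.62. Their sum was 81.3, 65.7 and 87.2 CPM in young and 85.5, 90.9 and 87.5 CPM in aged libraries, which overlapped (means 78.1 ± 11.1 in the young and 88.0 ± 2.69 CPM in the aged group, 1.13-fold), and Hist1h1c gave most of it. By limma, 16.2% of all genes tested were called higher. At 1 to 10 CPM the share was 4.17%, and Hist1h2bc, Hist2h2be and Hist1h2ac lay there (means 7.54, 1.57 and 1.46 CPM). The standard errors of their log2 fold changes were 0.293, 0.417 and 0.429, against 0.114 for Hist1h1c. The lack of a call on these low genes thus does not show that they were unchanged. The 4 genes were chosen with their values known, so their difference from the other histone genes was not tested.

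A run of A within a transcript can bind an oligo-dT primer, and the most abundant histone gene had 1 of the longest. Up to the end of the stem-loop, the longest run was 12 A in Hist1h2ap and Hist1h2ao, 8 in Hist1h2ae and 7 in Hist1h3c. Those in Hist1h2ap and Hist1h2ao end right at the stem-loop printed above. Hist1h2ap had the highest mean of all histone genes (1685 CPM), Hist1h2ae the second of class H2A (73.9 CPM) and Hist1h3c the highest of class H3 (17.04 CPM). Hist1h1e, with no run over 6, was at 513 CPM, and Hist1h3f, with a run of 6, was at 1.07 CPM. Hist1h2ao, with the same run as Hist1h2ap, was counted at 13.0 CPM. The levels of both Hist1h2ap and Hist1h2ao rest on how reads that cannot be told apart by sequence were split between them. Neither level alone can thus be set against the run, and the relation of run length and level was not tested. Hist1h2ac has 15 A in a row, Hist1h2be 11 and Hist1h1d 8, all after the stem-loop, and their means were 1.46, 3.77 and 18.3 CPM. Which of these stretches primed the reads was not tested. A polyadenylation signal (AATAAA or ATTAAA) was found downstream of the stem-loop or stop codon in 22 genes. In the 13 genes whose annotated transcripts end 0 to 2 bases after the stop codon there was nothing to search, so genes with and without a signal were not compared.

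**Figure D4:**
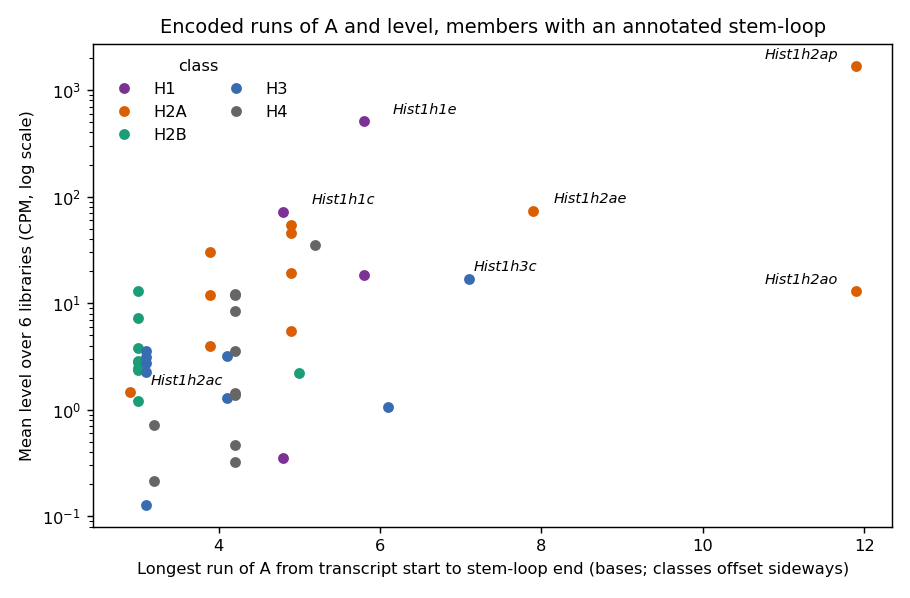
Mean level over the 6 libraries (CPM, log scale) against the longest run of A from the transcript start to the end of the stem-loop, for the 44 histone genes with an annotated stem-loop, coloured by class. Hist1h2ap and Hist1h2ao share a run of 12 A, and their separate points rest on how the counting split reads that cannot be told apart by sequence, while Hist1h1e reaches 513 CPM with 6.

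Reads of near-identical copies or overlapping genes could be assigned to more than 1 gene. An end was counted as shared if at least 50% of the 50-base stretches in the last 150 annotated bases also lay in another gene. The match could lie anywhere in the transcripts of that gene. In genes annotated to end at the stop codon, the compared bases are coding sequence. Shared ends were found in 21 of the 64 genes, exons overlapping another gene on the same strand in 7 and on the other strand in 20. Leaving out genes with a shared end or a same-strand overlap (a set defined with the results in view), 11 of 33 tested genes were higher (33.3%) and 0 lower. Of all genes tested 16.2% were higher and 12.5% lower. Leaving out also histone genes with an overlap on the other strand, 7 of 26 were higher (26.9%) and 0 lower: Hist1h1b, Hist1h1d, Hist1h2bj, Hist1h2bk, Hist1h3c, Hist1h4d and Hist1h4i.

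Many replacement histones are made throughout the cell cycle from ordinary polyadenylated mRNA, and the genes listed here moved in both directions. Of 9 tested (12 listed), 4 were higher (2 by DESeq2) and 1 lower, where 16.2% of all genes tested were higher and 12.5% lower. The median log2 fold change of the 9 was 0.04. H2afz, which encodes the variant H2A.Z, was at 516, 450.5 and 506 CPM in young and 727, 754 and 750.2 CPM in aged libraries (log2 fold change 0.60, limma adjusted p = 7.14e-07), with the groups apart. H3f3b, one of the H3.3 genes, was higher (means 464 ± 10.4 in the young and 632 ± 23.3 CPM in the aged group; log2 fold change 0.44, limma adjusted p = 1.15e-05). H3f3a, the other H3.3 gene, was not called (309.9 ± 6.09 in the young and 286 ± 4.94 CPM in the aged group; log2 fold change -0.11, limma adjusted p = 0.209). Cenpa, the centromeric H3 variant, and H2afx, the variant phosphorylated at DNA breaks, were higher by 0.44 and 0.45 on the log2 scale (limma adjusted p = 0.00996 and 0.0258). The call on Cenpa was lost without Young replicate 2 (0.0666), and that on H2afx without Young replicates 1 or 2 or Aged replicates 1 or 3 (0.113, 0.129, 0.094 and 0.0576). DESeq2 called neither (adjusted p = 0.0745 for Cenpa and 0.171 for H2afx), edgeR did not call H2afx (adjusted p = 0.0549), and the values of H2afx overlapped between groups. H2afy, which encodes macroH2A1, was lower in aged cells (638 ± 6.36 in the young and 441 ± 44.4 CPM in the aged group; log2 fold change -0.54, limma adjusted p = 7.19e-06).

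Genes for the transcription and 3' end processing of histone mRNA had 12 of 29 tested members higher and 2 lower, with a median log2 fold change of 0.21, where 16.2% of all genes tested were higher and 12.5% lower. DESeq2 called 5 of the 29 higher, and 8.98% of all genes. Slbp, the stem-loop binding protein, was at 49.995, 35.5 and 34.2 CPM in young and 64.02, 66.7 and 66.8 CPM in aged libraries, groups apart (log2 fold change 0.73, limma adjusted p = 0.000485). Npat, the coactivator of histone gene transcription, named here after its values were seen, was not called (35.7 ± 0.457 in the young and 38.5 ± 1.73 CPM in the aged group; log2 fold change 0.11, 95% interval -0.17 to 0.38). Srrt and Snrpd3, a partner of the cap-binding complex and an Sm protein, were higher by 0.50 and 0.57 on the log2 scale (limma adjusted p = 0.000374 and 0.000248). The 2 that were lower, Tut7 (159 ± 4.28 in the young and 111 ± 6.12 CPM in the aged group) and Tut4 (107 ± 5.39 in the young and 62.0 ± 10.5 CPM in the aged group), encode enzymes that add uridines to RNA ends and act in RNA decay (log2 fold changes -0.51 and -0.80, limma adjusted p = 0.000119 and 3.97e-05).

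Histone chaperones carry new histones to DNA, and 16 of 26 tested were higher and 0 lower, with a median log2 fold change of 0.45, where 16.2% of all genes tested were higher and 12.5% lower. At an unadjusted p under 0.05 in limma, 17 were higher and 2 lower. The higher calls were 12 by edgeR, 11 by DESeq2 and 12 by limma-voom, and the lower calls were 2, 0 and 2. Nasp, which holds reserves of H3 and H4, was at 94.8, 89.4 and 109 CPM in young and 197, 200.1 and 204 CPM in aged libraries, 2.05-fold higher on the means with the groups apart (log2 fold change 1.03, limma adjusted p = 7.85e-08). Chaf1a, the large subunit of the chromatin assembly factor CAF-1, was higher by 1.09 (25.2 ± 2.30 in the young and 54.8 ± 3.54 CPM in the aged group; limma adjusted p = 6.43e-06). Rbbp7 and Nap1l1, a histone-binding subunit and an H2A-H2B chaperone, were higher by 0.68 and 0.43 (limma adjusted p = 7.41e-06 and 1.77e-05).

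DNA replication genes of S phase moved in the same direction as the histone genes. Where 16.2% of all genes tested were higher and 12.5% lower, 29 of these 31 were higher and 0 lower (0 lower at an unadjusted p under 0.05 and 0 by edgeR or DESeq2). The median log2 fold change of the 31 was 0.86 (range 0.31 to 1.32). The 4 with the smallest p were Lig1, Mcm7, Dut and Mcm3, at log2 fold changes of 1.01, 1.05, 0.85 and 0.91. Their sum over 31 genes was 2081, 1876 and 2284 CPM in the young and 3868, 3940.5 and 3822 CPM in the aged libraries. Young replicate 2 was the lowest and Young replicate 3 the highest young library in this sum too, the same order as in the histone sum. The histone sum divided by this sum was 0.904 to 1.11 in young and 0.896 to 0.939 in aged libraries, ranges that overlap. For H3 the ratio was 0.0117 to 0.0134 against 0.0116 to 0.0128, which overlap too. It was lower in every aged library for all histone genes but Hist1h2ap (0.412 to 0.454 against 0.354 to 0.365) and for H1 (0.263 to 0.284 against 0.217 to 0.229). The ratio was also lower in every aged library for H2A without Hist1h2ap (0.0896 to 0.109 against 0.0843 to 0.0848), for H2B (0.0188 to 0.0220 against 0.0159 to 0.0179) and for H4 (0.0262 to 0.0298 against 0.0231 to 0.0245). For the 4 genes known to give polyadenylated transcripts it was 0.0350 to 0.0391 against 0.0221 to 0.0231. The share of cells in S phase was not measured, and its part in the histone values was not tested.

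**Figure D5:**
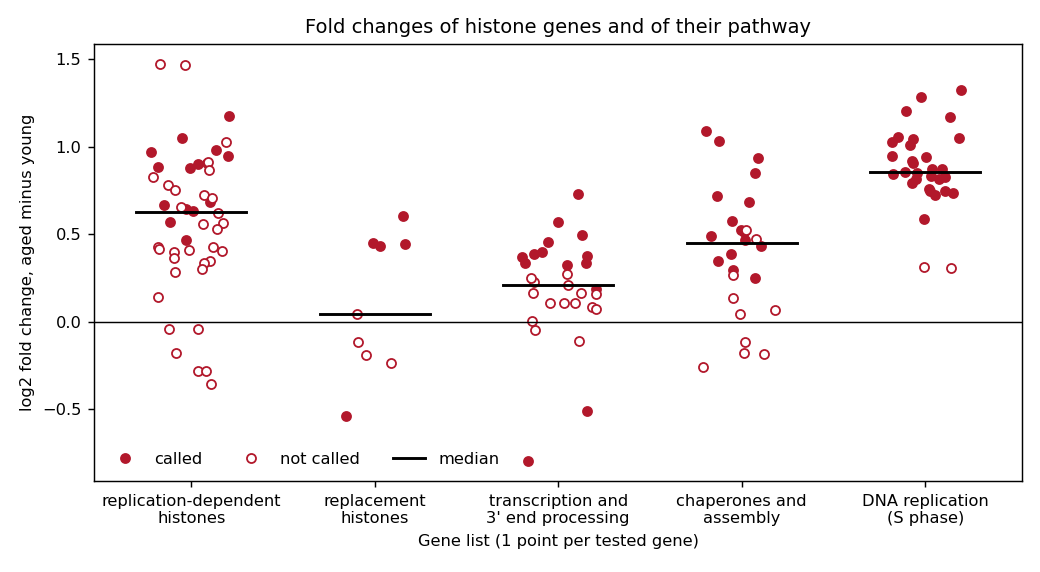
Log2 fold change on the log2(CPM + 1) scale, aged minus young, of each tested gene in 5 lists, with the list median as a bar and filled points for called genes. The medians are 0.63 for replication-dependent histone genes, 0.04 for replacement histones, 0.21 for transcription and 3' end processing, 0.45 for chaperones and 0.86 for DNA replication genes.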

How the data were processed

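The authors deposited 1 table per library of CPM for each Ensembl gene, and all values were whole multiples of 1 read within 0.001 reads (100%), so whole reads were recovered. The build was GRCm38 (mm10), per the submitters' processing notes; aligner, counter and annotation were not given in the sources used here. In the Aged replicate 2 file the header names replicate 3, and 12265 identifiers differ between the 2 files. A blank identifier was left out. Pairs of replicates differed more than counting noise (chi-square per degree of freedom 1.72 to 2.90). The main test, run on simulated data first, was limma 3.58.1 (R 4.3.3) with an intensity trend on log2(CPM + 1), which understates folds of low genes, for genes averaging 1 CPM or more, two-sided, with calls at p under 0.05 after Benjamini-Hochberg adjustment. On recovered reads, edgeR 4.0.16 called 1443 genes higher and DESeq2 1.42.0 called 944. Sums of CPM had no test. Stem-loops, A runs and overlaps came from GENCODE M21, promoters from RefSeq. The histone genes, lists and tests were chosen with earlier results of these data known. Named were all called histone genes, the 3 most abundant and the lowest fold change per class, and, from other lists, the 4 smallest p and genes of a stated role. Alternatives were other scalings, filters, pseudocounts, tools, thinning, a block and leaving out each library.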

Additional observations from a re-analysis of the deposited data

How the results depend on the processing

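The count of 15 histone genes higher in aged cells was 13 to 16 under TMM, RLE and upper-quartile scaling, other filters and pseudocounts, edgeR, limma-voom and thinning, and 0 were lower under every alternative. It was 8 with DESeq2, 8 to 14 when 1 library was left out (8 without Young replicate 2, 9 without Aged replicate 2), and 7 without genes that share ends or overlap on either strand. It was 11 without genes with shared ends or same-strand overlaps, an alternative chosen after seeing the data. The call was kept under all 18 alternatives by 8 genes: Hist1h2ap, Hist1h1e, Hist1h1b, Hist1h2ae, Hist2h2ac, Hist1h4d, Hist1h2ab and Hist1h1d. The others, at 3.08 to 62.6 CPM, lost it in 3 to 12. Over all genes, DESeq2 called 944 higher. Replacement histones higher were 2 with DESeq2 and 2 to 4 when 1 library was left out, and those lower were 2 with TMM, RLE and edgeR. Processing genes higher were 5 with DESeq2. Chaperones lower were 2 with TMM, RLE, edgeR and limma-voom, 1 with upper-quartile scaling and 0 to 1 when 1 library was left out. The cause was not tested. No result reversed. The replicate block gave 16 histone genes higher. Same-numbered libraries deviated from their group means with correlations of 0.0209, 0.00025 and 0.0028. No shared deviation was thus seen, but this cannot exclude that same-numbered libraries were handled together. Depth limits the genes under 10 CPM, where 1 read is worth 0.359 to 0.512 CPM.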
